A study of Mus musculus with 4 samples.

Results

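The 39 genes described here are targets of the transcription factor p53 and genes that hold the cell cycle, on 4 single-colour arrays of cultured mouse aortic smooth muscle cells. They were chosen by symbol, with earlier results of these data known. All 39 passed the filter on dim probes, out of 17660 tested genes or unnamed probes. The cells grew out of explants of adult aorta from C57BL/6J mice and carried the genotype EP4-Tg in both groups. EP4 is one of the receptors of prostaglandin E2 (PGE2), a Gs-coupled receptor that stimulates adenylyl cyclase. The labels do not give the promoter, the species or the part of the receptor that the transgene holds. The groups were 2 cultures left untreated for 24 h and 2 given PGE2 for 24 h, all kept in DMEM, with a dose, a vehicle and the animals' exact age not given in the sources used here. The labels call the cultures biological replicates but do not say whether they came from separate mice, so the p-values measure the spread between these cultures. Cells without the transgene were not analysed here.

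p53 is kept low by its ubiquitin ligase Mdm2 and the related Mdm4, and is freed when DNA is damaged or growth is stressed. It then switches on genes that stop the cell cycle (Cdkn1a, which encodes the CDK inhibitor p21), start apoptosis (Bax, Bbc3), repair DNA (Xpc, Ddb2) and restrain growth signalling (Sesn1, Sesn2), together with Mdm2 itself. Several of these genes also answer to other signals, and the INK4 and CIP/KIP inhibitors of cyclin-dependent kinases arrest cells with or without p53. In smooth muscle of the vessel wall these inhibitors restrain proliferation after injury.

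Gadd45a, which encodes a small stress protein that binds PCNA and the mitotic kinase Cdk1, was 7.29-fold higher with PGE2. It was 1 of the 39 genes called higher at a limma p under 0.05 after Benjamini-Hochberg adjustment over everything tested, and 0.396% of all tested genes were. None was called lower, against 0.272% of all tested genes. At an unadjusted p under 0.05, 18 of the 39 were lower and 2 higher, where 10.5% and 7.31% of all tested genes were. Both PGE2 arrays lay below both control arrays in 24 of the 39 genes (61.5%) and above them in 6, against 28.3% and 24% of all tested genes. Thus 30 of the 39 had groups that did not overlap, as 52.2% of all tested genes did. The change was below 0 in 29 of the 39 and in 52.7% of all. It was -1 or lower in 8 of the 39 (6.09% of all) and 1 or higher in 2 (4.76% of all). The median log2 change, PGE2 minus control, was -0.49 over the 39 and -0.03 over all tested genes. The lower counts include Gtse1, which passed the filter through its control arrays. With the filter on all 4 arrays, 23 of 38 genes lay wholly lower, against 28.3% of all tested genes, and 28 had a change below 0.

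Levels are log2 intensities relative to each array's 75th percentile, so a level of 0 is that percentile. The level of a gene is compared between arrays and is not read as more or less expression than another gene's. Summed linear levels of a list add the signals of different probes, so they mainly follow the brightest ones. Changes carry the standard error of the fit, with n = 2 arrays per group. In RNA from whole cultures, fewer cells of a type and less RNA per cell cannot be told apart.

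**Figure D1:**
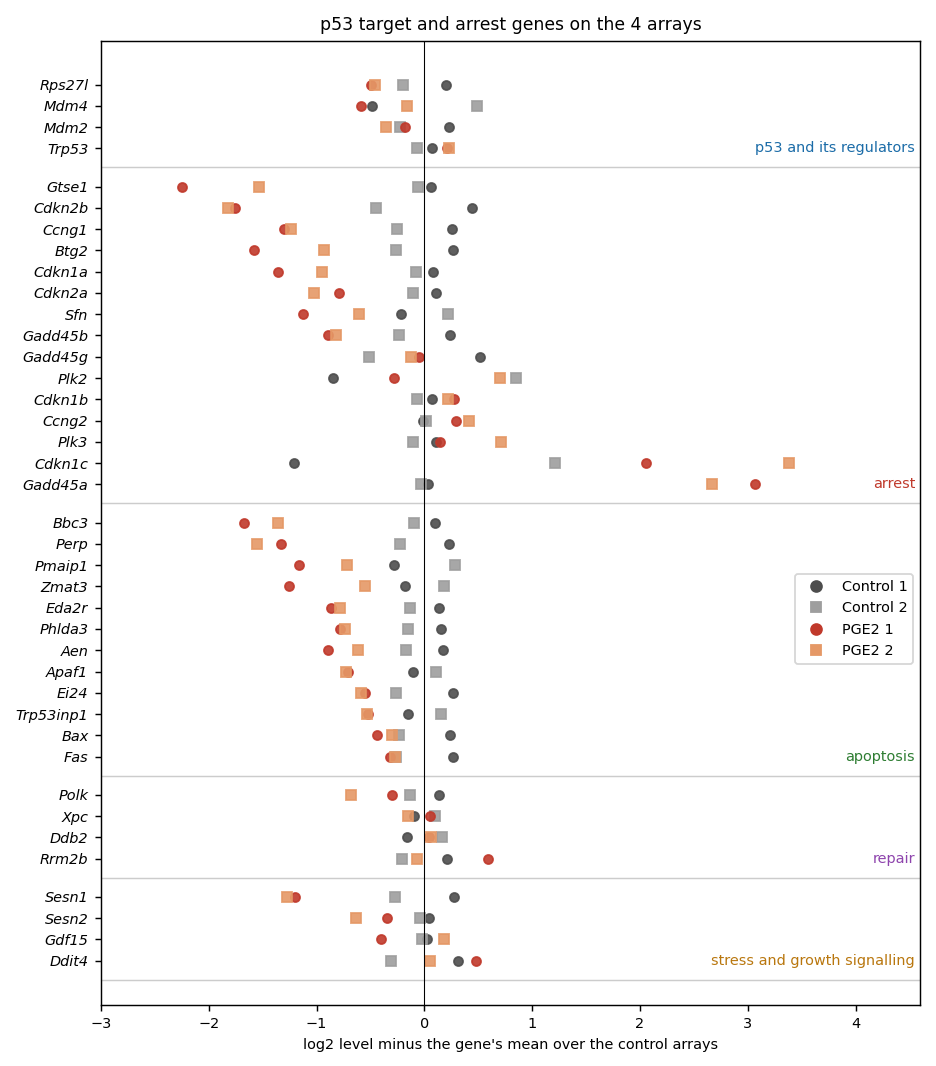
Each row is a gene, and each point 1 array, as its log2 level minus the gene's mean over both control arrays (horizontal axis). Circles are replicate 1 and squares replicate 2, grey for control and red or orange for PGE2. In the 12 apoptosis genes the PGE2 points lie left of the control points, while Gadd45a and Cdkn1c lie to the right.

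By role, the median change was -0.86 over 15 arrest genes, -0.76 over 12 apoptosis genes, -0.32 over p53 and 3 regulators, -0.30 over 4 genes of stress and growth signalling and -0.00099 over 4 repair genes. The arrest median was -0.47 over the 14 genes above background on all 4 arrays, which leaves out Gtse1, and the apoptosis median stayed at -0.76 there, so the order of these roles turned. The spread within the roles was unequal. Arrest genes ran from -1.89 to 2.87, apoptosis genes from -1.51 to -0.30 and repair genes from -0.49 to 0.26. The PGE2 arrays stood apart from the control mean by about the same amount in the apoptosis genes, with a median of -0.82 on PGE2 replicate 1 and -0.67 on PGE2 replicate 2, while the control arrays lay at 0.14 and -0.14. Over the repair genes those medians were 0.04 and -0.11 for PGE2, against 0.02 and -0.02 for control.

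**Figure D2:**
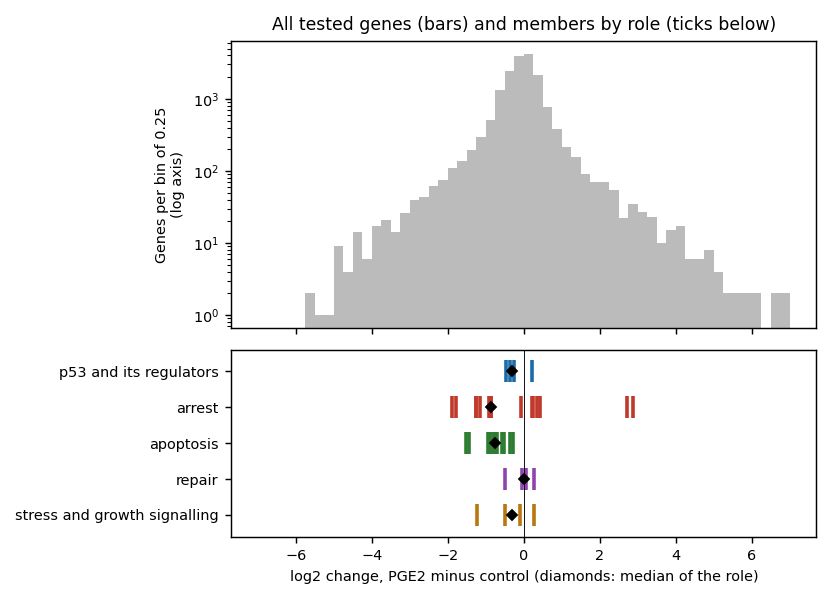
The bars count all 17660 tested genes by log2 change in bins of 0.25 (log axis), and the ticks below show the 39 genes by role with the role's median as a diamond. The apoptosis ticks all lie below 0, whereas arrest genes are found on both sides, up to 2.87.

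The p53 gene, Trp53, stood at 0.73 and 0.60 on the control arrays and 0.87 and 0.89 on the PGE2 arrays, a change of 0.21 ± 0.16 (adjusted p = 0.529, limma) with a 95% interval from -0.21 to 0.64. The PGE2 arrays were the higher ones, without overlap. Mdm2, the ligase that p53 induces and that removes p53, stood at 4.11 and 3.66 in control and 3.71 and 3.53 with PGE2. Its groups overlapped, and the change was -0.27 ± 0.22 (adjusted p = 0.585, limma), with a second, dimmer Mdm2 probe at -0.80. Mdm4, which binds p53 and blocks its activity, had a control pair far apart at -0.19 and 0.77, with PGE2 at -0.30 and 0.12. All 5 measured Mdm4 probes were below 0, from -0.47 to -0.13. Rps27l, a ribosomal protein gene that p53 induces and whose product binds Mdm2, was lower on both PGE2 arrays (5.31 and 5.35 against 6.00 and 5.61), with a change of -0.48 ± 0.20 (adjusted p = 0.330, limma).

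Of the arrest genes, 8 of 15 had both PGE2 arrays below both control arrays, where 28.3% of all tested genes did, and 5 had them above, a share (33.3%) near the 24% of all tested genes. The 8 include Gtse1, which passed the filter through its control arrays. Cdkn1a (gene ID 12575) is the p53 target among the CDK inhibitors. It stood at 2.93 and 2.78 on the control arrays and 1.49 and 1.90 on the PGE2 arrays. The groups were 2.23-fold apart, a change of -1.16 ± 0.21 (95% interval -1.74 to -0.58) that did not pass the threshold (adjusted p = 0.120, limma). The dimmer Cdkn1a probes, each above background on 1 of 2 PGE2 arrays, gave -0.80 and -1.36.

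Cdkn2b encodes p15, an INK4 inhibitor of Cdk4 and Cdk6 best known as a target of TGF-beta. It stood at 4.16 and 3.27 in control and at 1.96 and 1.89 with PGE2, a change of -1.79 ± 0.34 (adjusted p = 0.130, limma). The PGE2 arrays were close together and the control arrays were not, and the change was -1.35 without control replicate 1 and -2.24 without control replicate 2. A second Cdkn2b probe gave -1.94. Its neighbour Cdkn2a, which encodes both p16 and the Mdm2 antagonist ARF, stood at 3.93 and 3.71 against 3.03 and 2.79. Its 2 probes gave -0.91 and -0.89 (adjusted p = 0.140 for the brighter, limma). Both are annotated to the same transcript record, and whether they read the p16 transcript, the ARF transcript or both was not tested.

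The CIP/KIP family was split. Cdkn1b, which encodes p27, was slightly above control on both PGE2 arrays (3.62 and 3.57 against 3.42 and 3.28), a change of 0.25 ± 0.16 (adjusted p = 0.483, limma). Cdkn1c, which encodes p57, an inhibitor of cells leaving the cycle for good, stood at -0.56 and 1.87 in control and at 2.71 and 4.04 with PGE2. The control arrays were far apart, and the change of 2.72 ± 0.97 had a 95% interval from 0.06 to 5.38 and did not pass (adjusted p = 0.275, limma). It was 1.503 without control replicate 1 and 3.93 without control replicate 2. Both PGE2 arrays lay above both control arrays all the same.

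**Figure D3:**
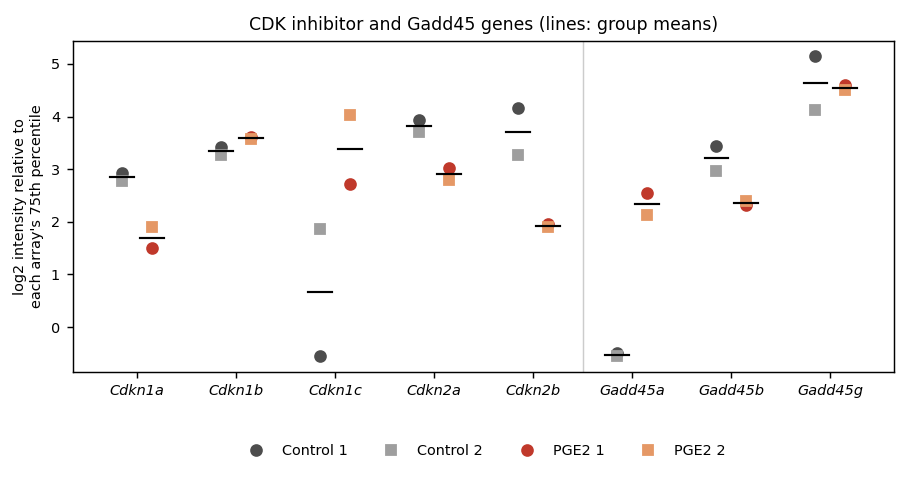
Levels of 5 CDK inhibitor genes and 3 Gadd45 genes on the 4 arrays (vertical axis: log2 intensity relative to each array's 75th percentile), with a line at each group's mean. Cdkn1a, Cdkn2a, Cdkn2b and Gadd45b were lower with PGE2, Cdkn1c and Gadd45a higher. Heights are not compared between genes.

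The Gadd45 genes encode 3 related stress proteins, and they did not share a direction. Gadd45a (gene ID 13197) stood at -0.49 and -0.56 on the control arrays and at 2.54 and 2.14 on the PGE2 arrays, and rose by 2.87 ± 0.21 (95% interval 2.30 to 3.43, adjusted p = 0.0451, limma). The groups lay far apart compared with the spread within each (SD 0.05 in control and 0.28 with PGE2). The call sat close to the threshold. It was lost without control replicate 1 (2.90, adjusted p = 0.150), without control replicate 2 (2.83, adjusted p = 0.111), without PGE2 replicate 1 (2.67, adjusted p = 0.0578) and in 3 of the other alternatives, with adjusted p from 0.0276 to 0.215 over all 16 and changes from 2.60 to 3.12. A second Gadd45a probe, designed on another transcript, stayed below the background limit on all 4 arrays. Gadd45b stood at 3.45 and 2.97 in control and 2.31 and 2.39 with PGE2, a change of -0.86 ± 0.22 (adjusted p = 0.188, limma). Gadd45g stood at 5.16 and 4.12 against 4.59 and 4.51, so its groups overlapped, and its change of -0.09 ± 0.39 (adjusted p = 0.926, limma) turned to 0.43 without control replicate 1.

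Among other genes that slow the cycle, Ccng1, the cyclin G1 gene and a classic p53 target, stood at 4.36 and 3.86 in control and 2.81 and 2.87 with PGE2. The change was -1.27 ± 0.23 (adjusted p = 0.119, limma). Ccng2, its paralogue that FOXO factors induce in quiescent cells, lay the other way, at 1.04 and 1.07 against 1.35 and 1.47, a change of 0.35 ± 0.15 (adjusted p = 0.338, limma), with 0.41 on a second probe. Btg2, an antiproliferative gene of the BTG/TOB family, stood at 1.22 and 0.70 against -0.63 and 0.03, and both of its probes were lower (-1.26 ± 0.33, adjusted p = 0.188, limma, and -1.47). Sfn, the gene of 14-3-3 sigma, which holds Cdk1 in the cytoplasm, stood at -0.68 and -0.24 against -1.59 and -1.07. The kinase gene Plk3 stood at -1.79 and -2.005 against -1.76 and -1.18, and Plk2 at 1.26 and 2.95 against 1.82 and 2.80. Plk2 thus differed more between cultures of 1 group than between groups (0.21 ± 0.69, adjusted p = 0.900, limma), and its sign depended on which array was left out.

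Gtse1 encodes a protein of G2 and S phase that shuttles p53 out of the nucleus, so it opposes p53 rather than carrying out arrest. It passed the filter through control, at -2.18 and -2.31, and was well above background on 1 of 2 PGE2 arrays, at -4.49 and -3.78. The fitted change of -1.89 ± 0.29 (adjusted p = 0.0961, limma) thus rests in part on a dim value, and it was -0.79 with normexp and quantile normalization. None of the 7 tested of 10 G2/M marker genes of cycling cells was called (limma). At an unadjusted p under 0.05, 2 were lower, against 10.5% of all tested genes. All 7 had a change below 0, as 52.7% of all tested genes did, and 5 had both PGE2 arrays below both control arrays (28.3% of all). Top2a, 1 of these 5, stood at -0.43 on the probe used and at 0.08 on its other kept probe. Mki67 stood at -2.12 ± 0.43 (adjusted p = 0.137, limma), while the groups of Aurka and Plk1 overlapped. Their summed linear level, which the brighter probes weigh most, was 2.26 and 3.41 on the control arrays and 1.64 and 1.86 on the PGE2 arrays. Their part in the Gtse1 value was not tested.

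**Figure D4:**
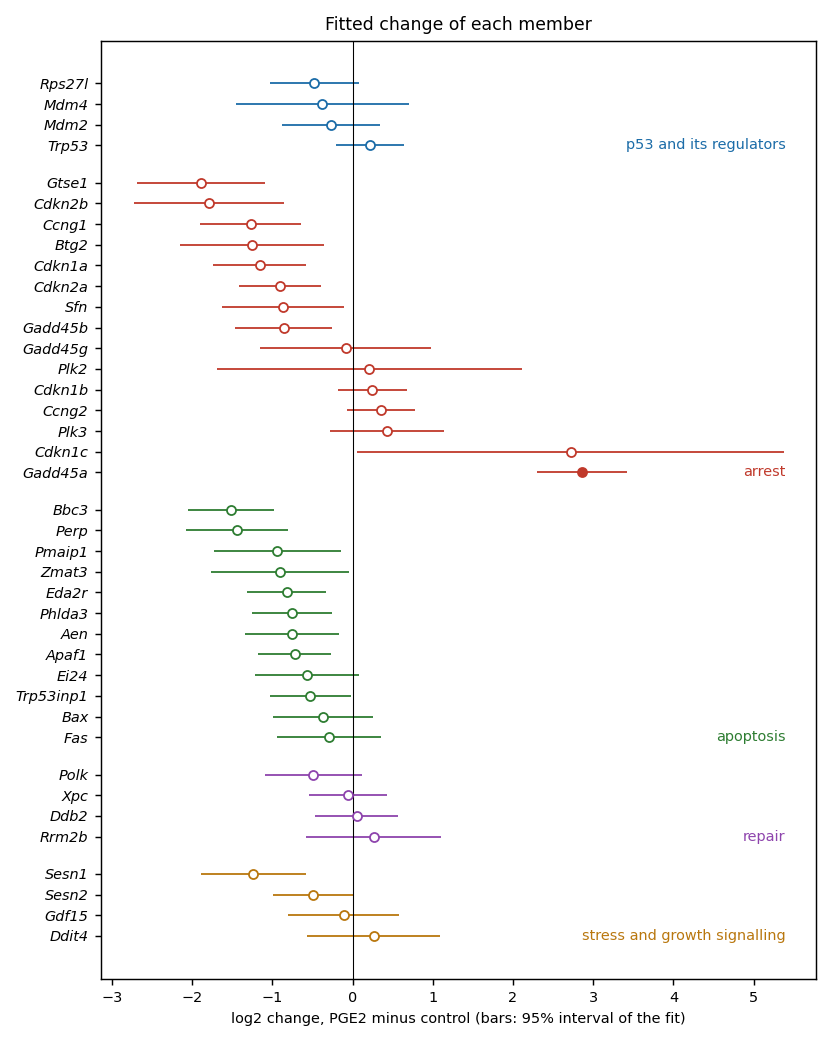
Fitted log2 change, PGE2 minus control (horizontal axis), of each of the 39 genes by role, with the 95% interval of the limma fit (n = 2 arrays per group). The filled point, Gadd45a, passed an adjusted p of 0.05 and the open points did not. The widest interval belongs to Cdkn1c.

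The promoters of 31 of the 39 genes were found by symbol in a RefSeq table of assembly GRCm38.p6, as 42 windows from 250 bases before to 50 bases after a transcription start. They were searched on both strands for the p53 decamer, a pair of which makes a full p53 response element (with 0 to 13 bases between them), and for the cyclic AMP response element TGACGTCA and its core TGACG, which lies within it. The decamer was in 13 of the 42 windows (31.0%), against 8.36% of all 32851 windows, in a set of genes chosen as known targets. A full element was in 1 of the 42 and in 0.0731% of all. TGACGTCA was in 3 of the 42 (7.14%), against 1.79% of all, and TGACG in 10 (23.8%), against 20.8%. A match describes letters only, and no binding was measured.

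The stretches below show the 200 bases before the start, 5′ to 3′ on the gene's strand, for genes on both sides of the comparison, with the p53 decamers and cyclic AMP elements in capitals. Cdkn1a (chr17:29090779-29090978, plus strand) is shown for the only pair of p53 decamers that met the search pattern for a full element. That pair lies before the upstream of the gene's 2 listed starts, which are 2790 bases apart. Ccng1 (chr11:40755287-40755486, minus strand) and Gadd45a (chr6:67037408-67037607, minus strand) each hold a single p53 decamer and lay on opposite sides of control. Cdkn2b (chr4:89311033-89311232, minus strand) and Btg2 (chr1:134079156-134079355, minus strand) hold TGACGTCA.
Cdkn1a: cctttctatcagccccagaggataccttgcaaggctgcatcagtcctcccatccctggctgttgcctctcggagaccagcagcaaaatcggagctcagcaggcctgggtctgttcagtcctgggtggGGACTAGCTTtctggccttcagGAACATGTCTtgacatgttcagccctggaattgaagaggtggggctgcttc
Ccng1: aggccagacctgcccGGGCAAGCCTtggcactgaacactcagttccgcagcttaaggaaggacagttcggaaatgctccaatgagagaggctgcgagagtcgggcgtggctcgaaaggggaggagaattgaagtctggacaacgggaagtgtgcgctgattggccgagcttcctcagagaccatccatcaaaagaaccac
Gadd45a: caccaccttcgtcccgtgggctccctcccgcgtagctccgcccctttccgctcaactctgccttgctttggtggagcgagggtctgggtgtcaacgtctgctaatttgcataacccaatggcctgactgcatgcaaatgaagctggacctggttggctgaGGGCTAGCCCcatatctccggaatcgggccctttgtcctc
Cdkn2b: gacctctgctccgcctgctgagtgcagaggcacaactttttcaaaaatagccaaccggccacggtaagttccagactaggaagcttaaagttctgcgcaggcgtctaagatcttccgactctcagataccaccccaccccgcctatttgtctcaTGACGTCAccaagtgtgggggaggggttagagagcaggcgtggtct
Btg2: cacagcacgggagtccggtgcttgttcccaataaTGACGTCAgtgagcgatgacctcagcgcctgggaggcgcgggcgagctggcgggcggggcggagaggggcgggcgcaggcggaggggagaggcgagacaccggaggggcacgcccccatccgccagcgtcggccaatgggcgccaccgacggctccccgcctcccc
In Cdkn1a the decamers begin 73 and 51 bases before the start, with 12 bases between them. The bases directly after the second decamer, tgacatgttc, were not counted, because the pattern asks for A or G at the first base. Whether they pair with the decamer before them was not tested. The decamer begins 185 bases before the start in Ccng1 and 40 in Gadd45a, and TGACGTCA begins 46 bases before it in Cdkn2b and 166 in Btg2. Plk2, whose groups overlapped, holds the third TGACGTCA. Of 20 genes with a window and both PGE2 arrays below both control arrays, 9 held a p53 decamer and 2 held TGACGTCA. Of all 31 genes with a window, which include those 20, 12 held a decamer and 3 held TGACGTCA. Whether the lower genes differ from the others in these motifs was not tested.

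Apoptosis genes lay to 1 side. On the brightest probe of each gene, all 12 had a change below 0 (52.7% of all tested genes) and both PGE2 arrays below both control arrays (28.3% of all). With the kept probes of a gene averaged, 11 of the 12 lay wholly lower, against 28.2% of all. A dimmer probe each of Bax, Fas and Aen had overlapping groups. At an unadjusted p under 0.05 (limma), 9 of the 12 were lower, against 10.5% of all tested genes. None passed the adjusted threshold, with adjusted p from 0.0772 to 0.567 (limma). The 12 stayed below 0 under all 16 alternatives, and 9 of the 12 did not overlap on the authors' scale, where 14% of tested genes lay wholly lower.

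Bbc3 encodes PUMA, a BH3-only protein through which p53 triggers mitochondrial apoptosis. It stood at 1.98 and 1.79 in control and 0.21 and 0.53 with PGE2, which is 2.85-fold lower (-1.51 ± 0.20, 95% interval -2.05 to -0.98, adjusted p = 0.0772, limma). Perp, a p53-induced membrane protein of desmosomes, stood at 4.42 and 3.96 against 2.86 and 2.64 (-1.44 ± 0.23, adjusted p = 0.103, limma). In both genes the groups were clearly apart. Pmaip1, the gene of the BH3-only protein NOXA, stood at 0.24 and 0.79 against -0.65 and -0.20 (-0.94 ± 0.29, adjusted p = 0.233, limma).

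Bax, Apaf1, Fas and Eda2r had smaller fitted changes than Bbc3, Perp and Pmaip1, though Apaf1 and Eda2r were close to Pmaip1. Bax, the pore-forming protein of the mitochondrial outer membrane, stood at 4.15 and 3.68 against 3.48 and 3.61, a change of -0.37 ± 0.23 (adjusted p = 0.464, limma), with -0.23 on a second probe. Apaf1, the scaffold of the apoptosome, stood at -1.56 and -1.34 against -2.16 and -2.18 (-0.72 ± 0.17, adjusted p = 0.163, limma). The death receptor gene Fas had its control arrays at 2.92 and 2.40 and its PGE2 arrays at 2.34 and 2.39. The groups were barely separate there, with a change of -0.30 ± 0.24 (adjusted p = 0.567, limma). Eda2r, which encodes a receptor of ectodysplasin A2, stood at -0.61 and -0.88 against -1.61 and -1.53. Its 2 measured probes gave -0.82 and -0.79 (adjusted p = 0.152 for the brighter, limma).

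The remaining genes of this role act beside the mitochondrial pathway. Phlda3, a p53-induced inhibitor of Akt, stood at 6.23 and 5.93 against 5.30 and 5.34 (-0.76 ± 0.18, adjusted p = 0.171, limma). Aen, an apoptosis-enhancing nuclease, stood at 4.84 and 4.50 against 3.77 and 4.06, and all 5 of its probes were lower, from -0.93 to -0.35. Zmat3, a p53-induced RNA-binding zinc finger protein, stood at 1.14 and 1.50 against 0.06 and 0.77, with the PGE2 arrays unequal. Trp53inp1, a nuclear protein that aids p53, stood at 2.53 and 2.84 against 2.17 and 2.16, and Ei24, an endoplasmic reticulum protein of autophagy, at 1.91 and 1.37 against 1.09 and 1.05. For these last the changes were -0.53 ± 0.18 and -0.57 ± 0.24 (adjusted p = 0.268 and 0.323, limma), and all kept probes of both genes were below 0.

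Repair genes showed no shift beyond the spread between cultures, and 3 of the 4 had overlapping groups. Xpc, which finds bulky lesions for nucleotide excision repair, stood at 0.42 and 0.61 in control and 0.56 and 0.36 with PGE2. Its change of -0.05 ± 0.18 had a 95% interval from -0.54 to 0.43 (adjusted p = 0.899, limma), and its 2 probes differed in sign. Ddb2, which finds ultraviolet damage in the same pathway, stood at -1.09 and -0.76 against -0.89 and -0.86 (0.05 ± 0.19, 95% interval -0.46 to 0.57, adjusted p = 0.908, limma). Rrm2b, the p53-inducible subunit of ribonucleotide reductase, stood at -1.29 and -1.70 against -0.91 and -1.56 (0.26 ± 0.31, 95% interval -0.58 to 1.098, adjusted p = 0.693, limma). Polk, a translesion DNA polymerase, was the exception, with 0.42 and 0.16 against -0.01 and -0.39 (-0.49 ± 0.22, adjusted p = 0.344, limma). A change inside these intervals is not excluded with 2 arrays per group, and the intervals are not limits of detection.

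Genes of stress and growth signalling were mixed. Sesn1, a sestrin that p53 induces and that restrains mTORC1, stood at 3.46 and 2.92 against 1.99 and 1.92. It was 2.36-fold lower with PGE2 (-1.24 ± 0.24, adjusted p = 0.132, limma), with the groups well apart. Sesn2, the sestrin that the integrated stress response also induces, stood at 2.00 and 1.91 against 1.61 and 1.32 (-0.49 ± 0.18, adjusted p = 0.282, limma). Ddit4, an mTORC1 inhibitor induced by hypoxia and glucocorticoids as well as by p53, stood at 5.21 and 4.59 against 5.38 and 4.95, with overlapping groups (0.27 ± 0.30, adjusted p = 0.686, limma). Gdf15, a secreted stress cytokine of the TGF-beta superfamily, stood at 0.91 and 0.87 against 0.49 and 1.07, so that the PGE2 arrays lay on both sides of control (-0.11 ± 0.25, adjusted p = 0.846, limma).

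The rest of the pathway was read from lists set up beside the 39 genes, and 0 of their genes were called in either direction (limma). Their counts stand against the shares of all tested genes, 10.5% lower and 7.31% higher at an unadjusted p under 0.05, and 28.3% wholly lower and 24% wholly higher. Of 22 tested further p53 targets, 8 were lower and 1 higher at an unadjusted p under 0.05, the median change was -0.27, and 11 had both PGE2 arrays below both control arrays while 2 had them above. Rprm, the gene of the G2 arrest protein reprimo, stood at -2.53 ± 0.71 and was above background on 1 of 2 PGE2 arrays. Both lower counts include Rprm, which passed the filter through its control arrays. The microtubule-binding gene Psrc1 stood at -1.70 ± 0.41. Tigar, which lowers glycolytic flux, and the autophagy gene Dram1 stood at 0.88 ± 0.31 and 0.86 ± 0.40. Of 13 kinases and modifiers that act on p53, 0 passed an unadjusted p under 0.05 and the median was 0.04, and among those whose groups did not overlap the lowest were the ligase gene Rchy1 and the damage kinase gene Atm (-0.26 ± 0.18 and -0.24 ± 0.16) and the highest the ligase gene Cop1 and the acetyltransferase gene Ep300 (0.49 ± 0.28 and 0.30 ± 0.21). Of the p53 family, Trp63 stood at -0.24 ± 0.16 and Trp73 at 0.0035.

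Of 18 tested BCL2 family and caspase genes, 1 was lower and 2 higher at an unadjusted p under 0.05, with a median of -0.08, and these shares (5.56% and 11.1%) are near those of all tested genes. Bcl2l1, which encodes the survival protein BCL-XL, stood at 5.24 and 4.88 in control and 3.84 and 3.88 with PGE2 (-1.20 ± 0.20, adjusted p = 0.104, limma), and the BH3-only genes Bid and Bmf stood at -0.87 ± 0.35 and 0.67 ± 0.20. Cycs, the cytochrome c gene, stood at 0.65 ± 0.25. Of 20 tested cyclin, CDK and RB-E2F genes, 5 were lower and 1 higher at an unadjusted p under 0.05, with a median of 0.04. The D-type cyclin gene Ccnd1, which drives the kinases that p15 and p16 inhibit, stood at 4.16 and 4.03 against 2.17 and 2.49 (-1.76 ± 0.19, adjusted p = 0.0616, limma). Ccna2, the S-phase cyclin gene, stood at -1.97 ± 0.40 (above background on 1 of 2 PGE2 arrays). It is among the 5 lower genes and passed the filter through its control arrays. The E2F genes E2f5 and E2f3 stood at 0.56 ± 0.16 and 0.50 ± 0.29.

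No marker of a cell type was called (limma, lowest adjusted p 0.0962), and their part in the results was not tested. Summed linear levels of a list are given as its range over the arrays of a group, and the brighter probes weigh most in them. Of 8 smooth muscle markers 4 were tested, with Acta2, Tagln and Cnn1 lower on both PGE2 arrays (-2.10 ± 0.46, -1.79 ± 0.35 and -2.26 ± 0.99, adjusted p = 0.152, 0.134 and 0.338, limma), while Myocd was above background on no array and Myh11, Lmod1 and Des did not reach the filter. Their summed level was 407 to 714 in control and 129 to 173 with PGE2.

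Of 8 leukocyte markers 5 were tested, and they were split. The macrophage gene Cd68 stood at 2.09 ± 0.36 (adjusted p = 0.109, limma) and Csf1r at 0.98 ± 0.43, with a second Csf1r probe at -0.42, while Itgam and Ptprc stood at -0.61 ± 0.27 and -0.36 ± 0.24 and the groups of Cd3e overlapped. The summed level, 63.0 to 76.6 in control and 39.7 to 59.1 with PGE2, is mostly Itgam. Adgre1, Lyz2 and Cd79a were above background on none. Of 5 fibroblast markers 4 were tested, again on both sides of 0. The proteoglycan genes Dcn and Lum stood at -2.91 ± 0.46 and -2.17 ± 0.49, Pi16 at 2.78 ± 0.43 (adjusted p = 0.101, 0.159 and 0.0962, limma) and Pdgfra, whose groups overlapped, at 0.60 ± 0.75. Their summed level, 90.5 to 201 and 22.9 to 25.2, is mostly Dcn, and Dpt was above background on no array. Of 6 endothelial markers only Pecam1 was tested (0.0820 to 0.0934 and 0.0706 to 0.0878), and its groups overlapped, while Tek and Tie1 were above background on none.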

How the data were processed

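RNA from 4 cultures was labelled with Cy3 and read on 1 Agilent array each, and groups were taken from the sample titles. The deposited values are spot intensity readings from the scanner, made with Agilent Feature Extraction 11.5.1.1 (protocol GE1_1105_Oct12, design 074809, probe build mm9) per the file headers, where the submitters' processing notes give 12.0.3.1 as its version. The authors' series table holds the processed intensity times 1 constant per array (0.945 to 1.07). Its medians are 32.7 to 42.9. Its 4 other columns of values per sample were not used. All arrays share 1 scan identifier, and no pair held identical values. On each, 47.9% to 53.8% of 59305 non-control spots were well above background and 0 were saturated. Across genes, arrays of a group correlated at r = 0.974 and 0.978.

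Processed intensities were divided by the 75th percentile of the array's non-control spots and taken to log2. Outlier flags removed 158 of 56605 probes. The filter asked for both arrays of either group to be well above background, which 26100 probes met, and the brightest of these stood for its gene. In 18 members several probes passed, and only those of Xpc disagreed in sign. Symbols are those of the table, updated by gene ID through RefSeq (GRCm38.p6). PGE2 was compared with control by limma 3.58.1 in R 4.3.3 (lmFit, eBayes; 2 residual and 2.15 prior degrees of freedom) with Benjamini-Hochberg adjustment at 0.05, and the steps were tested on simulated data. The scanner files have no mean spot signal, so normexp (offset 50) used the median. The members and lists were chosen with earlier results of these data known. The text names every member, with values on each array for the called, the key and the wholly separate ones past a change of 1, and from each pathway list the extremes among genes whose groups did not overlap.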

Additional observations from a re-analysis of the deposited data

How the results depend on the processing

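With 2 arrays per group the precision is limited, and 38 of the 39 genes were uncalled under every alternative. The sign of the change held in 31 genes under all 16 alternatives that tested them (Gtse1 was dim under 1 of them). On the authors' scaled values the median of all genes moved from -0.03 to 0.23, so the members' median moved to -0.23 (apoptosis -0.50, p53 and its regulators -0.064, repair 0.26, stress and growth signalling -0.044). The distance between the members' median and that of all genes stayed at -0.47, which a constant per array cannot change. On that scale 26 members had a change below 0 and 20 lay wholly lower. With the filter on all 4 arrays the arrest median was -0.47 over 14 genes, without Gtse1. The apoptosis median was -0.60 with normexp and quantile normalization. Without the filter on dim probes, the median of all genes was -0.33 and that of the members -0.49, so the distance between them shrank to -0.16.

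The number of members called higher was 1, and 0 on the authors' scale, without the filter and with the percentile taken over probes detected on all arrays. Genes called higher over all (70) and lower (48) became 0 and 0 under those 3 alternatives, and 39 and 15 with the filter on all 4 arrays. The percentile over probes gave 94 and 77. Both percentile alternatives were chosen after seeing the data. The cause of these changes was not tested, beyond the larger or smaller number of genes that the filters leave.

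Leaving out each array in turn, with the lone array assumed to vary like the other group, gave 0 to 98 genes called higher and 0 to 76 lower, 0 to 1 members called higher and 0 to 0 lower. Without either control array no gene was called, and without PGE2 replicate 1 it was 54 and 55, with 0 members. Member medians then ranged from -0.61 to -0.52, those of apoptosis from -0.82 to -0.67, of p53 and its regulators from -0.34 to -0.16, of repair from -0.13 to 0.050, of arrest from -0.79 to -0.61 and of stress and growth signalling from -0.38 to -0.27.

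With the replicate number as a block, 88 genes were called higher and 84 lower, and 1 member (Gadd45a, adjusted p = 0.0473) higher and 0 lower. The deviations of same-numbered arrays correlated at 0.424 across all tested genes and at 0.647 across the tested members, over 2 pairs. The labels do not tie the numbers to a shared culture, so the pairing was not used.

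Signs turned in 8 genes, all uncalled. With normexp, Ddb2 stood at -0.0024 (quantile) and -0.046 (percentile) and Xpc at 0.00022 and 0.011. On the authors' scale Gadd45g stood at 0.17, Gdf15 at 0.15 and Xpc at 0.21. Averaging probes gave Xpc 0.015. Leaving out each array in turn, the change ranged from -0.11 to 0.22 in Ddb2, from -0.049 to 0.58 in Ddit4, from -0.60 to 0.43 in Gadd45g, from -0.41 to 0.18 in Gdf15, from -0.86 to 0.11 in Mdm4, from -0.64 to 1.05 in Plk2, from -0.065 to 0.59 in Rrm2b and from -0.15 to 0.047 in Xpc. Negative values came without control replicate 1 in Ddb2 and Plk2, without control replicate 2 in Ddit4, without PGE2 replicate 1 in Rrm2b and without PGE2 replicate 2 in Plk2 (-0.28). Positive values came without control replicate 1 in Gadd45g, without control replicate 2 in Mdm4 and Xpc (0.04), without PGE2 replicate 1 in Gdf15 and without PGE2 replicate 2 in Xpc.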
